A study of Homo sapiens with 24 samples.

Results

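Collagen and laminin genes were followed in 2 human pancreatic ductal adenocarcinoma cell lines, PANC1 and BXPC3, across 24 RNA-seq libraries. The genes were taken by symbol from both deposited count tables: COL, a number, A and a number with nothing more, or LAMA, LAMB or LAMC followed by 1 digit. The rule found 56 of 25168 genes, of which 44 were collagen and 12 were laminin genes. In each line, cells had received SR4 at 5 uM, lonidamine at 300 uM, both compounds, or vehicle, all for 24 h in low-glucose medium with serum, and each of the 8 groups had 3 libraries. The labels state no separate doses for the combination, so comparisons of the combination with either compound assume the doses used alone. SR4, a compound known by its code name, uncouples mitochondria, and lonidamine is known to block pyruvate and lactate transport and respiratory complex II. Its title presents the series as a test of dual therapy against the energy metabolism of pancreatic cancer. Each line stands for itself only, and the labels do not say whether the 3 libraries of a group came from separate cultures, so p-values measure the spread between these libraries, which may be technical.

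Total gene counts per library lay between 8.87 and 11.8 x 1e6 in PANC1 and between 9.14 and 11.5 x 1e6 in BXPC3. Levels are given as CPM, the counts of a gene per 1e6 counts of a library, scaled by TMM over all 24 libraries, and levels of different genes are compared per kilobase of gene length. A count of 0 allows up to 0.326 CPM in the shallowest PANC1 library and 0.347 CPM in the shallowest BXPC3 library, for counting error only. After a low-count filter, 32 of the 56 genes were tested in PANC1 (24 collagen and 8 laminin genes) and 30 in BXPC3 (23 collagen and 7 laminin genes). Of these, 22 were tested in both lines, 10 in PANC1 only (COL4A2, COL6A2, COL11A1, COL11A2, COL13A1, COL21A1, COL26A1, LAMA4, LAMB2 and LAMC3) and 8 in BXPC3 only (COL4A4, COL4A6, COL8A1, COL17A1, COL22A1, COL28A1, LAMA2 and LAMB3). The other 16 passed in neither line: COL1A2, COL2A1, COL4A3, COL6A5, COL6A6, COL9A1, COL10A1, COL14A1, COL15A1, COL19A1, COL20A1, COL23A1, COL24A1, COL25A1, LAMA1 and LAMB4. Among the untested genes the highest mean over a line's 12 libraries was 0.427 CPM in PANC1 (COL24A1) and 0.566 CPM in BXPC3 (COL11A2). Genes rose or fell where edgeR's quasi-likelihood test gave a Benjamini-Hochberg adjusted p under 0.05 over all genes tested. Log2 changes carry a standard error (SE) and CPM a standard deviation (SD), with n = 3 per group.

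Both lines are described as pancreatic cancer cells, and both held epithelial transcripts, although of the keratins KRT5 and KRT17 had 3 and 2 counts in the PANC1 vehicle libraries. The sum over 8 epithelial markers was 1778 to 2050.4 CPM with SR4, 963 to 1051 CPM with lonidamine and 795 to 833 CPM with the combination, against 3534 to 3685 CPM with vehicle in PANC1. In BXPC3 the same sums were 6869 to 7256 CPM, 9391 to 9957 CPM and 4643 to 4783 CPM, against 9442 to 10239 CPM with vehicle. The 8 markers did not move together there. With lonidamine KRT17 had a mean of 3936 CPM, EPCAM 235 CPM and CDH1 580 CPM, against 1535, 222 and 549 CPM with vehicle. KRT5, KRT7, KRT8, KRT18 and KRT19 were lower. With SR4, KRT7 had 2481 CPM, against 1931 CPM, EPCAM had 241 CPM, and the rest were lower than with vehicle. With the combination EPCAM had 301 CPM, and the rest were lower. The sum over 6 markers of a mesenchymal state was 4467 to 5036 CPM with SR4, 3533 to 3609 CPM with lonidamine and 2822 to 2839.9 CPM with the combination, against 4235 to 4334 CPM with vehicle in PANC1, where it lay above the epithelial sum. In BXPC3 it was 230 to 237 CPM with SR4, 213 to 217 CPM with lonidamine and 215 to 224 CPM with the combination, against 192 to 199.9 CPM with vehicle. Its markers did not move together there. With the combination VIM had a mean of 138 CPM and ZEB1 2.61 CPM, against 67.3 and 1.36 CPM with vehicle. SNAI2 had 76.0 CPM and CDH2 2.57 CPM, against 114 and 14.3 CPM. ZEB2 had 1 count with the combination and 9 with vehicle, and TWIST1 had 0 in both groups. In PANC1 these markers did not move together either, and the sum was mostly VIM. With the combination VIM had a mean of 2613 CPM and CDH2 94.0 CPM, against 4064 and 150 CPM with vehicle. ZEB1 had 123 CPM, against 59.5 CPM. SNAI2 had 16 counts, against 7, ZEB2 had 9, against 7, and TWIST1 had 0 in both groups. Fibroblasts are the main source of fibrillar collagen in tissue, and the sum over 10 fibroblast or stellate cell markers was at most 14.9 CPM in any PANC1 library and 28.1 CPM in any BXPC3 library. Of these markers, PDGFRA, DCN, LUM, FAP, PDPN and DES had 0 counts in the PANC1 vehicle libraries, THY1 had 232, RGS5 83, PDGFRB 49 and ACTA2 13. The sum of those 10 markers was 5.93 to 7.82 CPM with the combination, against 11.96 to 14.9 CPM with vehicle in PANC1, and 9.10 to 10.4 CPM, against 25.3 to 28.1 CPM in BXPC3. The 5 markers of immune cells summed to at most 5.16 CPM, and 6 endothelial markers to 0 to 0.922 CPM with the combination, against 10.0 to 11.8 CPM with vehicle in BXPC3. The part of these markers in the collagen and laminin results was not tested. In bulk RNA, fewer cells of a kind and less RNA per cell cannot be told apart.

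Collagens are proteins of 3 chains wound into a triple helix. Fibrillar collagens build the fibrils of connective tissue, type IV collagen forms the sheet-like network of basement membranes, and other classes decorate fibrils, form beaded filaments or span the plasma membrane. Laminins are heterotrimers of an alpha, a beta and a gamma chain that polymerise under epithelial cells and bind integrins. LAMA3 and LAMB3 encode chains of laminin-332, the laminin of hemidesmosomes, the junctions that tie epithelial cells to the basement membrane with COL17A1 on the cell side and the anchoring fibrils of COL7A1 on the stromal side. LAMA5, LAMB1 and LAMC1 encode laminin-511, a widespread basement membrane laminin. Pancreatic ductal adenocarcinoma is known for a dense collagen-rich stroma, most of which is made by stellate cells and fibroblasts.

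Several of these genes stand head to head or share a short sequence near their start sites. Stretches were taken for the laminin-332 chain genes LAMA3 and LAMB3, which both rose in BXPC3. Stretches were also taken for 2 head-to-head pairs of type IV collagen genes, COL4A5 with COL4A6 and COL4A1 with COL4A2. COL4A5 and COL4A6 both fell in BXPC3 with SR4 and with the combination. No stretch was taken for a further head-to-head pair, COL4A3 and COL4A4. Their RefSeq start sites lie at 227164624 (COL4A3, plus strand) and 227164205 (COL4A4, minus strand) on chromosome 2. COL4A4 rose in BXPC3 with each treatment, in calls that the low-count filter favoured, and COL4A3 was not tested. All stretches are from RefSeq promoters on GRCh38.p14, in which 41 of the 56 genes had a window. On both strands, 250 bases upstream of each start site were searched for 3 sequences. The AP-1 site sequence TGANTCA was found upstream of 8.06% of all 27305 genes in the table and of 3 of 41 members, COL10A1, LAMA3 and LAMB3. The CCAAT box sequence CCAAT was found upstream of 37.0% of genes and 13 of 41 members, and the GC box sequence GGGCGG upstream of 46.2% of genes and 27 of 41 members. In the stretches printed, no TGANTCA match overlaps a match of another sequence. A match describes letters only. Capitals mark the TGANTCA match in the first 3 stretches and CCAAT or its reverse complement ATTGG in the other 2. Distances are from the RefSeq start site of the window. The LAMA3 matches lie at -125 and -69 from a start site at 23873020, which is inside the gene, and both fall in an annotated LAMA3 exon. The LAMB3 match lies at -67 from the most downstream of 3 start sites, and the COL4A2 match at -105. The COL4A2 stretch lies between the RefSeq start sites of COL4A1 and COL4A2, inside the deposited span of COL4A2, and overlaps an annotated COL4A1 exon.

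The LAMA3 stretches (chr18:23872884-23872912 and chr18:23872940-23872968, plus strand), the LAMB3 stretch (chr1:209651395-209651624, minus strand, 230 bases), the stretch between COL4A6 and COL4A5 (chrX:108439588-108439708, plus strand, 121 bases) and that between the start sites of COL4A1 and COL4A2 (chr13:110307168-110307194, plus strand) read, 5′ to 3′:
LAMA3 first match: ctggcacaggcTGACTCAtgtgtgaagtt
LAMA3 second match: ccttcctcaccTGAGTCAggcaggcccgg
LAMB3: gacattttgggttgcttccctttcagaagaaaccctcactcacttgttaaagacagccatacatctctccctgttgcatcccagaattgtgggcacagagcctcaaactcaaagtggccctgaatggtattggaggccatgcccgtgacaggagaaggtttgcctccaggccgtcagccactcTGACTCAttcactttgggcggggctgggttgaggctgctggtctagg
COL4A5 and COL4A6: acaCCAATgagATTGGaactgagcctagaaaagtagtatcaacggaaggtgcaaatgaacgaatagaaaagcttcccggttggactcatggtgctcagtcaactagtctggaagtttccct
COL4A1 and COL4A2: ggccgagctccCCAATttgttggcgct

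COL4A6 on the minus strand and COL4A5 on the plus strand start 379 bases apart on chromosome X, for the COL4A6 start site at 108439458. Another COL4A6 start site lies further off, at 108438422. COL4A1 on the minus strand and COL4A2 on the plus strand start 126 bases apart on chromosome 13. In the deposited annotation COL4A1 and COL4A2 overlap by 1338 bases on opposite strands, LAMB1 overlaps DLD by 7932 bases, COL18A1 overlaps SLC19A1 by 20149 bases and LAMA5 overlaps its antisense gene by 3486 bases. Whether counting used strand was not stated, so reads in the shared stretches could belong to either gene.

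Without compound, PANC1 and BXPC3 expressed different collagens and laminins. PANC1 was dominated by COL18A1, which encodes the basement membrane collagen that releases endostatin, followed per kilobase by LAMB1, LAMC1, COL11A1 and LAMA5. In BXPC3, COL17A1, LAMB1, LAMB3 and COL12A1 were among the highest. LAMC1 and COL11A1 in PANC1, and LAMB3 and COL12A1 in BXPC3, stood within the spread of their libraries of each other. COL18A1 had 1283, 1306 and 1291 CPM in PANC1 vehicle libraries, against 34.0, 38.7 and 35.2 CPM in BXPC3 vehicle libraries. COL17A1, the transmembrane collagen of hemidesmosomes, had 0.103, 0.217 and 0.215 CPM in PANC1, against 774, 790.2 and 801 CPM in BXPC3. In neither gene did the libraries of the lines overlap. Of 40 members tested over both lines, 16 were higher in PANC1, where 41.3% of all 13930 genes were, and 21 were lower, where 43% of all genes were (edgeR, 24 libraries). The median log2 difference was -0.79 over the members and -0.01 over all genes. COL4A2, COL4A4 and COL5A3 did not pass.

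Per kilobase of gene length, COL18A1 stood at 152 ± 1.35 in PANC1 and 4.24 ± 0.291 in BXPC3 (CPM per kilobase, SD, n = 3 each), a ratio of 36.0 with a 95% counting interval of 34.0 to 38.2. COL11A1, a minor fibrillar chain, stood at 26.1 ± 1.35 in PANC1 and 0.0411 ± 0.0220 in BXPC3, and COL1A1, the alpha 1 chain of type I collagen, at 8.10 ± 0.313 in PANC1 and 1.27 ± 0.0968 in BXPC3. COL1A2, the partner chain of type I collagen, had 0 counts in the 3 PANC1 vehicle libraries and 3 counts in those of BXPC3, which is at or under 0.106 CPM, the level of 3 counts over the PANC1 vehicle libraries. The type V genes were close in the lines: COL5A1 stood at 9.62 ± 0.680 in PANC1 and 7.05 ± 0.190 in BXPC3 and COL5A2 at 16.5 ± 0.253 in PANC1 and 10.5 ± 0.729 in BXPC3. Genes of the beaded filament collagen, type VI, divided between the lines. COL6A1 stood at 7.90 ± 0.614 in PANC1 and 40.2 ± 0.481 in BXPC3, whereas COL6A2 stood at 5.74 ± 0.285 in PANC1 and rested on 2 counts in the BXPC3 vehicle libraries, a ratio of 495 with a counting interval of 137 to 4098. COL6A3, the long chain, stood at 0.329 ± 0.0292 in PANC1 and 0.00793 ± 0.00975 in BXPC3, where it rested on 5 counts.

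LAMA3, LAMB3, COL17A1, COL7A1 and the COL4A5 and COL4A6 pair were lower in PANC1 than in BXPC3. LAMA3 stood at 0.729 ± 0.0383 in PANC1 and 34.0 ± 0.542 in BXPC3 CPM per kilobase and LAMB3 at 0.0304 ± 0.0135 in PANC1 and 48.0 ± 1.15 in BXPC3, the PANC1 value of LAMB3 resting on 4 counts. COL17A1 stood at 0.0280 ± 0.0103 in PANC1 and 124 ± 2.19 in BXPC3, a ratio of 4455 with a counting interval of 1909 to 13722 that rests on 5 counts in PANC1. COL7A1, the anchoring fibril gene, was 2.34-fold lower in PANC1, at 7.72 ± 0.432 in PANC1 and 18.1 ± 1.18 in BXPC3. The head-to-head pair COL4A5 and COL4A6, chains of a type IV network of epithelial basement membranes, was low or at 0 in PANC1: COL4A5 stood at 0.147 ± 0.00437 in PANC1 and 22.2 ± 1.04 in BXPC3, and COL4A6 had 0 counts in PANC1 vehicle libraries and was at least 1938-fold lower there (3 counts over the group as the floor). COL8A1, a short-chain network collagen, was likewise at 0 in PANC1 vehicle libraries and at least 1252-fold lower than in BXPC3. LAMB2 and LAMC3 ran the other way. LAMB2, a beta chain, stood at 6.74 ± 0.528 in PANC1 and had 0 counts in BXPC3 vehicle libraries, so it was at least 494-fold higher in PANC1, and LAMC3, a gamma chain, was at least 114-fold higher on the same floor. Chains of laminin-511 differed less, with LAMA5 at 18.3 ± 0.326 in PANC1 and 32.5 ± 2.25 in BXPC3, LAMB1 at 33.6 ± 0.326 in PANC1 and 62.2 ± 1.68 in BXPC3 and LAMC1 at 27.9 ± 1.23 in PANC1 and 39.0 ± 2.56 in BXPC3.

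**Figure D1:**
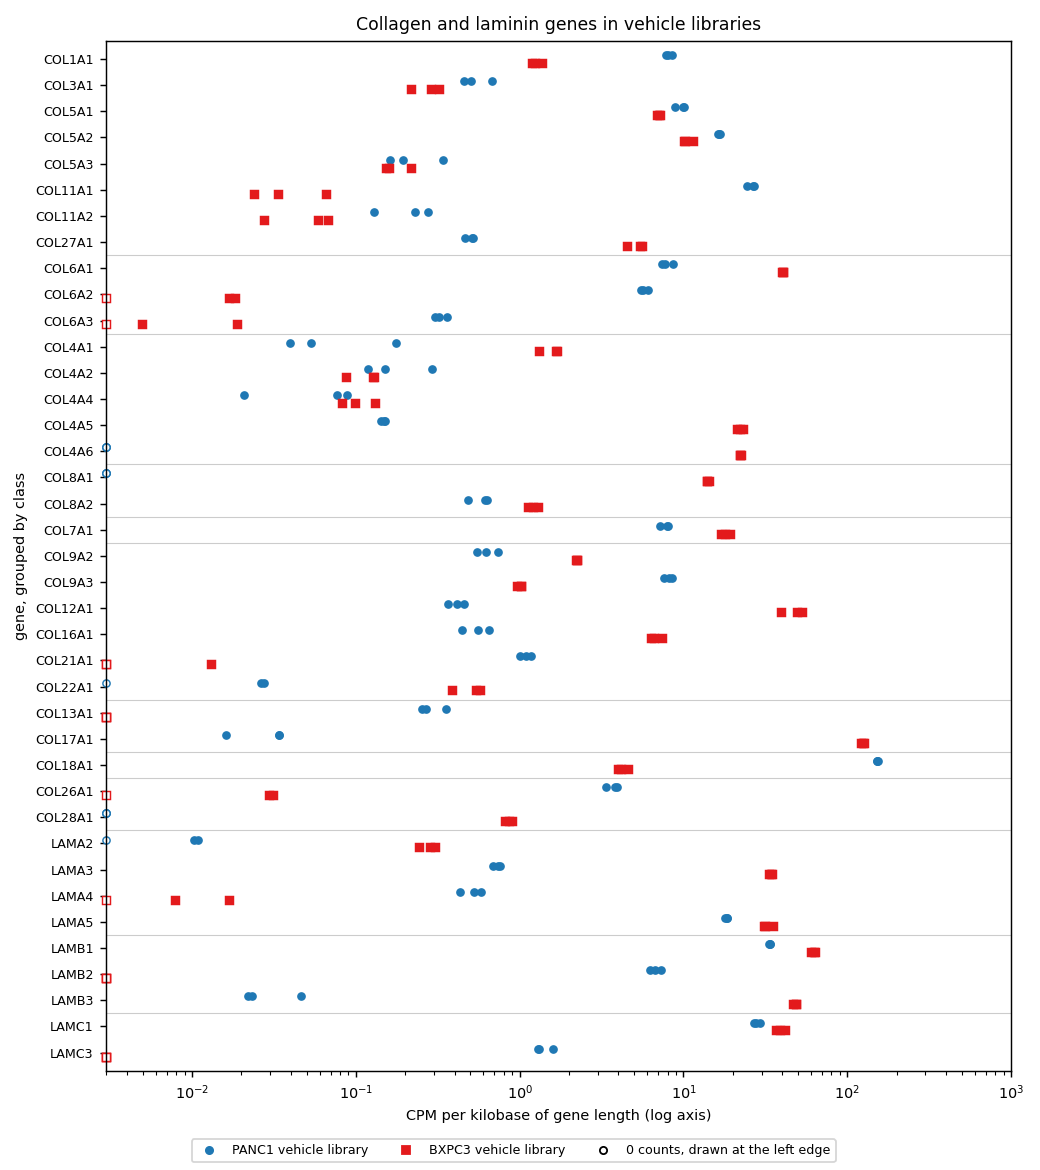
Level of the members described here that were tested in at least 1 line, in CPM per kilobase on a log axis, in the 3 vehicle libraries of PANC1 (blue circles) and of BXPC3 (red squares), grouped by class; open symbols at the left edge had 0 counts. COL18A1 lies highest in PANC1, COL17A1 lies far higher in BXPC3 than in PANC1, and COL4A6, COL8A1 and COL28A1 are at 0 in the 3 PANC1 libraries.

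In BXPC3, all 3 treatments raised the laminin-332 genes LAMA3 and LAMB3 and the collagens of the epithelial anchor, while COL5A2, COL8A1 and COL12A1 were among the collagens that fell. Among the 11 members that rose with each treatment were LAMA3, LAMB3, LAMA5, LAMB1, COL17A1, COL7A1, COL5A1, COL8A2, COL4A4 and COL6A3. The 6 that fell with each were COL12A1, COL18A1, COL3A1, COL5A2, COL6A1 and COL8A1. COL3A1 passed the low-count filter through its 3 vehicle libraries alone, and COL6A3 through its 3 SR4 libraries and 1 combination library, so that the filter itself favoured a fall of COL3A1 with treatment and a rise of COL6A3 with SR4. COL4A4 passed it through 3 libraries of each treatment and 1 vehicle library, which favoured a rise of COL4A4 with treatment. With SR4, 14 of 30 members rose and 9 fell, where 33.4% and 33.9% of all 12920 genes did. With lonidamine 12 rose and 9 fell, where 34.8% and 32.7% of genes did, and with the combination 13 rose and 15 fell, where 39.7% and 39.5% did. The shares for SR4 and lonidamine lie close to those of all genes in the falling direction, and the numbers alone do not set the members apart. Over the 7 laminin genes the median log2 change was 0.46, 0.48 and 0.65 with SR4, lonidamine and the combination, and over the 23 collagen genes it was -0.12, 0.02 and -0.57, beside 0.01, 0.03 and -9.62e-04 over all genes. The 3 comparisons share their vehicle libraries.

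LAMB3, the beta chain of laminin-332 (chromosome 1, 209614870 to 209652466, minus strand on GRCh38), had 588, 560.1 and 547 CPM with SR4, 479, 477 and 457 CPM with lonidamine, 1063, 1112 and 1136 CPM with the combination, against 228, 226 and 218 CPM with vehicle. Every treated library lay above every vehicle library, and those of the combination lay highest. The log2 change of LAMB3 was 1.33 ± 0.037 with SR4, 1.09 ± 0.037 with lonidamine and 2.31 ± 0.038 with the combination, with adjusted p-values of 3.59e-21, 2.19e-19 and 1.10e-26 (edgeR). LAMA3, its alpha chain (chromosome 18, 23689443 to 23955066, plus strand), had 903, 1024 and 929 CPM with SR4, 1294, 1276 and 1209 CPM with lonidamine, 1134, 1189.6 and 1204 CPM with the combination, against 458, 449.8 and 464 CPM with vehicle. Its log2 change was 1.05 ± 0.039 with SR4, 1.47 ± 0.039 with lonidamine and 1.37 ± 0.039 with the combination, and the lonidamine libraries lay highest. Every treated library of LAMA3 lay above every vehicle library.

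Other laminin chains rose less. LAMA5, the alpha chain of laminin-511, had 592, 639 and 591 CPM with SR4, 593, 623 and 606 CPM with lonidamine, 645, 679 and 735 CPM with the combination, against 474, 425 and 418 CPM with vehicle, and its log2 change was 0.46 ± 0.047 with SR4, 0.48 ± 0.047 with lonidamine and 0.65 ± 0.047 with the combination. LAMB1 had 633, 696 and 649.9 CPM with SR4, 612, 606 and 586 CPM with lonidamine, 548, 555 and 548 CPM with the combination, against 509, 489 and 514 CPM with vehicle. The treated libraries of both genes lay above the vehicle libraries, by less than for LAMA3 and LAMB3. LAMC1, the gamma chain shared by most laminins, had 308, 363 and 322 CPM with SR4, 350.4, 332 and 308 CPM with lonidamine, 297, 291 and 295 CPM with the combination, against 349.8, 307 and 323 CPM with vehicle. It did not pass with SR4 or lonidamine (log2 changes of 0.01 ± 0.052 and 0.03 ± 0.052), and with the combination it fell by 0.14 ± 0.053, a call lost without vehicle library 1 or combination library 2 (adjusted p of 0.0516 to 0.137 over those left out). LAMA2, an alpha chain of muscle laminin, was low, with 1.44, 2.23 and 1.70 CPM with SR4, 1.75, 1.80 and 2.01 CPM with lonidamine, 2.05, 1.38 and 1.73 CPM with the combination, against 2.43, 2.82 and 3.04 CPM with vehicle. Its falls with SR4 and with the combination (adjusted p = 0.0268 and 0.0220) were lost with DESeq2's test. The fall with SR4 was also lost with the replicate block (adjusted p = 0.129) and without vehicle library 2, vehicle library 3, SR4 library 1 or the unnumbered SR4 library (adjusted p of 0.0574 to 0.119 over those left out), and that with the combination without vehicle library 3 or combination library 2 (adjusted p of 0.0693 to 0.0949 over those left out).

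The collagens of the same anchor rose as well. COL17A1 (chromosome 10, 104031286 to 104086002, minus strand) had 1162, 1190.3 and 1225 CPM with SR4, 1330.2, 1336 and 1208 CPM with lonidamine, 856, 913 and 877 CPM with the combination, against 774, 790.2 and 801 CPM with vehicle. It rose by 0.59 ± 0.035 log2 with SR4 and 0.72 ± 0.035 log2 with lonidamine, and by 0.17 ± 0.035 log2 with both compounds together. COL7A1 (chromosome 3, 48564073 to 48595267, minus strand) had 370.4, 377 and 351 CPM with SR4, 366, 358 and 510.2 CPM with lonidamine, 284, 314 and 342 CPM with the combination, against 186, 212 and 196 CPM with vehicle. Its log2 change was 0.88 ± 0.087 with SR4, 1.07 ± 0.087 with lonidamine and 0.67 ± 0.088 with the combination, and no treated library reached down to the vehicle libraries. For both collagens the combination lay below each single compound: COL17A1 by 0.42 ± 0.035 log2 against SR4 and 0.56 ± 0.035 against lonidamine, COL7A1 by 0.21 ± 0.086 and 0.40 ± 0.086.

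**Figure D2:**
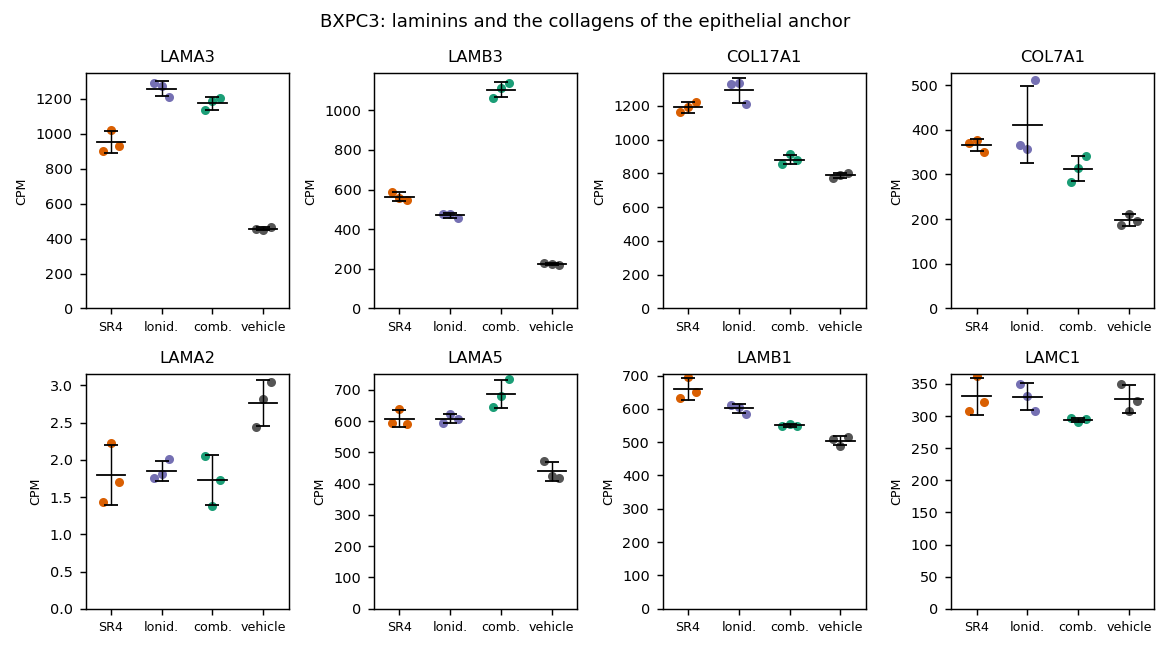
CPM of 8 laminin and collagen genes in each BXPC3 library by treatment (SR4, lonidamine, the combination and vehicle, left to right); points are libraries, the line is the mean and the bar the SD of 3 libraries, and each axis starts at 0. The laminin-332 genes LAMA3 and LAMB3 lie above vehicle in the 9 treated libraries, and LAMC1 overlaps vehicle with SR4 and lonidamine.

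The type IV genes of BXPC3 changed in 3 different ways. COL4A6 had 119.6, 126 and 129 CPM with SR4, 212, 216 and 207 CPM with lonidamine, 94.4, 99.3 and 98.4 CPM with the combination, against 204, 205 and 208 CPM with vehicle, and COL4A5 had 117, 129.8 and 126 CPM with SR4, 193, 194 and 173 CPM with lonidamine, 90.4, 98.6 and 103 CPM with the combination, against 192, 184 and 202 CPM with vehicle. The pair kept step: both fell with SR4, by 0.73 ± 0.041 and 0.64 ± 0.053 log2, and with the combination, by 1.07 ± 0.042 and 0.98 ± 0.055, while neither passed with lonidamine, at 0.05 ± 0.039 and -0.03 ± 0.051. Their ratio per kilobase, COL4A5 over COL4A6, was 1.06 ± 0.0307 with SR4, 0.940 ± 0.0428 with lonidamine and 1.06 ± 0.0478 with the combination, against 0.996 ± 0.0408 with vehicle. COL4A1, a chain of the ubiquitous type IV network (chromosome 13, 110148963 to 110307149, minus strand), had 11.6, 11.99 and 11.2 CPM with SR4, 2.99, 3.41 and 2.64 CPM with lonidamine, 1.14, 1.04 and 1.39 CPM with the combination, against 10.6, 13.5 and 13.8 CPM with vehicle. It did the converse, with no call for SR4 (log2 change -0.13 ± 0.12, adjusted p = 0.354), a fall of 2.05 ± 0.16 with lonidamine and one of 3.39 ± 0.20 with the combination. Its partner COL4A2 was not tested in BXPC3, at 0.895 ± 0.186 CPM in vehicle libraries. COL4A4 was low and rose, with 2.21, 2.33 and 2.84 CPM with SR4, 3.41, 3.61 and 2.64 CPM with lonidamine, 6.39, 5.88 and 6.59 CPM with the combination, against 0.811, 0.973 and 1.29 CPM with vehicle. Its libraries did not overlap between treated and vehicle groups, and the log2 change was 1.25 ± 0.28 with SR4, 1.66 ± 0.27 with lonidamine and 2.61 ± 0.24 with the combination. COL4A4 reached the low-count filter through 3 libraries of each treatment and 1 vehicle library, so that the filter itself favoured these rises.

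Fibrillar genes divided within one collagen type. COL5A2, the alpha 2 chain of type V collagen (chromosome 2, 189031896 to 189179879, minus strand), had 21.6, 24.3 and 23.0 CPM with SR4, 25.0, 24.9 and 25.1 CPM with lonidamine, 12.2, 10.7 and 11.8 CPM with the combination, against 71.0, 72.7 and 80.7 CPM with vehicle. It fell by 1.71 ± 0.069, 1.57 ± 0.069 and 2.68 ± 0.081 log2 with SR4, lonidamine and the combination, and every treated library lay below every vehicle library. COL5A1, the alpha 1 chain (chromosome 9, 134641774 to 134844843, plus strand), had 94.1, 104 and 104 CPM with SR4, 110.2, 109 and 106 CPM with lonidamine, 97.9, 99.0 and 98.8 CPM with the combination, against 78.9, 76.1 and 80.3 CPM with vehicle. COL5A1 rose with each treatment, by 0.35 ± 0.048 with SR4, 0.48 ± 0.048 with lonidamine and 0.34 ± 0.049 with the combination. Per kilobase, COL5A1 stood at 2.80 ± 0.0706 times COL5A2 with SR4, 2.77 ± 0.0743 times with lonidamine and 5.46 ± 0.4002 times with the combination, against 0.671 ± 0.0371 times with vehicle. COL5A3, a further type V chain, passed with lonidamine, where it rose by 1.11 ± 0.29 log2, at 2.58, 2.91 and 2.11 CPM, against 1.44, 1.07 and 1.01 CPM with vehicle. COL1A1 rose with the combination, at 18.8, 26.2 and 25.4 CPM, against 13.4, 11.6 and 12.2 CPM with vehicle, a log2 change of 0.93 ± 0.13. Its rise with SR4 was marginal (log2 change 0.30 ± 0.13, adjusted p = 0.0492), and it was lost with DESeq2's size factors, with DESeq2's test, with the replicate block and without vehicle library 2, vehicle library 3, SR4 library 1 or combination library 3 (adjusted p of 0.0513 to 0.2798 over those left out). COL27A1 passed with the combination, where it fell by 0.57 ± 0.082 log2. COL3A1 averaged under 1 CPM over the 12 BXPC3 libraries, with 7 counts in the SR4, 4 in the lonidamine and 2 in the combination libraries, against 60 in the vehicle libraries.

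COL8A1, the short-chain collagen of vessel walls and the corneal basement membrane (chromosome 3, 99638475 to 99799226, plus strand), fell with the combination by more than any other BXPC3 member with a mean of at least 1 CPM. It had 89.1, 90.2 and 99.1 CPM with SR4, 45.3, 42.0 and 42.3 CPM with lonidamine, 13.0, 9.79 and 11.1 CPM with the combination, against 132, 132 and 135 CPM with vehicle. The 4 groups did not overlap, and COL8A1 fell by 0.52 ± 0.052 log2 with SR4, 1.61 ± 0.058 with lonidamine and 3.55 ± 0.075 with the combination (adjusted p = 2.79e-24). Its relative COL8A2 rose, with 12.1, 9.76 and 10.6 CPM with SR4, 8.88, 11.3 and 10.7 CPM with lonidamine, 7.19, 9.56 and 6.82 CPM with the combination, against 5.59, 6.03 and 5.25 CPM with vehicle. The rise of COL8A2 with the combination, 0.49 ± 0.16 log2, was lost without combination library 2 (adjusted p = 0.0979). COL12A1, a fibril-associated collagen, had 329.7, 459 and 377 CPM with SR4, 372, 367 and 332 CPM with lonidamine, 135, 139 and 131 CPM with the combination, against 653, 489 and 611 CPM with vehicle. It fell by 0.60 ± 0.083 and 0.70 ± 0.084 log2 with the single compounds and by 2.10 ± 0.091 with both, and the combination libraries lay lowest. COL22A1, a collagen of tissue junctions, and COL9A2, a chain of cartilage type IX collagen, fell with lonidamine, by 1.04 ± 0.24 and 0.95 ± 0.19 log2, and with the combination. COL22A1 had 3.93, 3.71 and 3.03 CPM with SR4, 1.961, 1.90 and 1.69 CPM with lonidamine, 2.40, 1.84 and 1.85 CPM with the combination, against 2.97, 4.18 and 4.42 CPM with vehicle, and COL9A2 had 10.1, 7.53 and 5.49 CPM with SR4, 5.26, 4.41 and 4.33 CPM with lonidamine, 4.33, 4.26 and 6.36 CPM with the combination, against 9.19, 9.15 and 9.03 CPM with vehicle. In both genes the combination libraries lay below every vehicle library. COL9A3, another type IX chain, rose with SR4 and the combination, by 0.59 ± 0.17 and 0.69 ± 0.17. COL18A1 fell by 0.32 ± 0.074, 0.59 ± 0.077 and 1.06 ± 0.083 log2 with SR4, lonidamine and the combination. COL6A1 fell slightly with each treatment, by 0.29 ± 0.043, 0.20 ± 0.043 and 0.17 ± 0.044, with 183, 161 and 179 CPM with SR4, against 216, 214 and 211 CPM with vehicle. COL6A3 rested on few counts, with 1.34, 1.80 and 1.70 CPM with SR4, 0.310, 0.601 and 0.845 CPM with lonidamine, 0.342, 1.38 and 0.694 CPM with the combination, against 0, 0.0973 and 0.369 CPM with vehicle. Its treated and vehicle libraries overlapped with lonidamine and with the combination, and those calls were lost without vehicle library 1, vehicle library 2, lonidamine library 2 or lonidamine library 3 (adjusted p of 0.0693 to 0.144 over those left out) for lonidamine and without combination library 2 (adjusted p = 0.0775) for the combination. COL16A1, a fibril-associated collagen, passed with SR4, where it rose by 0.35 ± 0.059, and COL28A1 passed with the combination, where it fell by 0.81 ± 0.19.

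**Figure D3:**
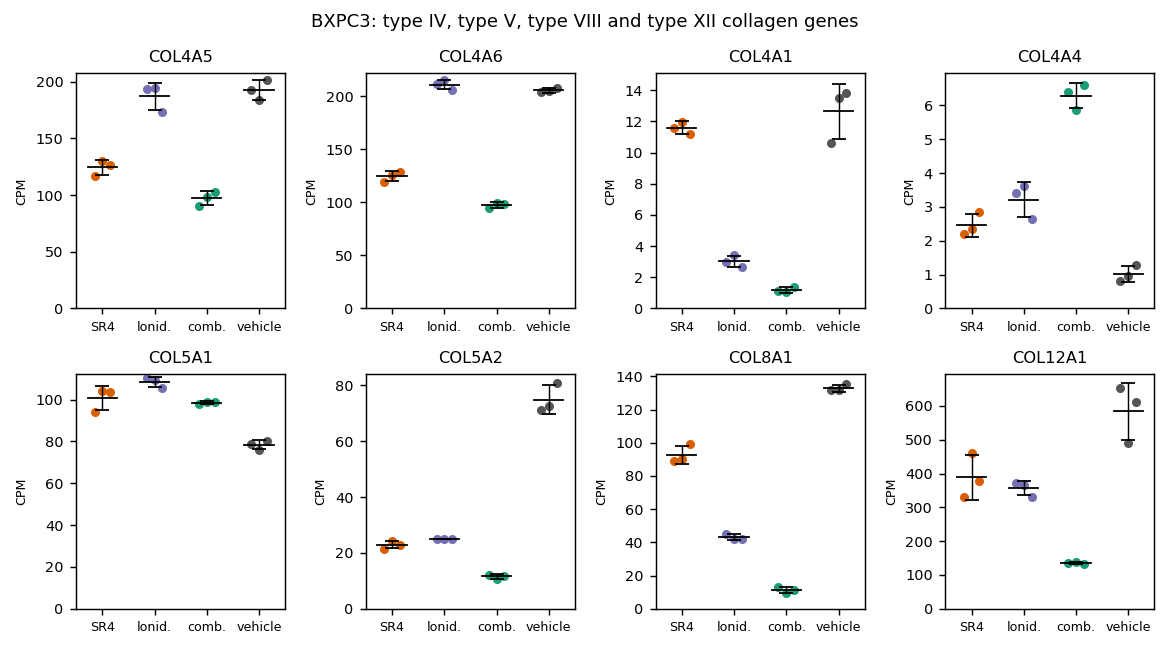
CPM of 8 collagen genes in each BXPC3 library by treatment (SR4, lonidamine, the combination and vehicle, left to right); points are libraries, the line is the mean and the bar the SD of 3 libraries, and each axis starts at 0. COL4A5 and COL4A6 are low with SR4 and the combination, COL4A1 is low with lonidamine and the combination, and COL5A1 and COL5A2 move in opposite directions.

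In PANC1, more collagen genes fell than rose with every treatment. Of the 24 collagen genes, 1 rose and 14 fell with SR4, 1 and 16 with lonidamine, and 2 and 16 with the combination. Of the 8 laminin genes, 3 rose and 1 fell with SR4, 4 and 3 with lonidamine, and 1 and 5 with the combination. Both are to be read beside the shares of all genes given below. The 12 members that fell with each treatment were COL1A1, COL3A1, COL5A1, COL5A2, COL11A1, COL27A1, COL18A1, COL16A1, COL9A3, COL26A1, COL7A1 and COL8A2, and COL6A2 and LAMB2 rose with each. With SR4, 4 of 32 members rose and 15 fell, where 35% and 36.7% of all 12514 genes did. With lonidamine 5 rose and 19 fell, where 35% and 34.2% did. With the combination 3 rose and 21 fell, where 40.1% and 40.9% did. The falls counted include COL4A5 with SR4, and COL11A2 and COL13A1 with lonidamine and the combination. These genes reached the low-count filter through vehicle libraries and libraries of other treatments, so that the filter itself favoured these falls. The 3 that rose with the combination, COL6A2, LAMB2 and COL12A1, overlapped with vehicle in their libraries, and their number was 1 with DESeq2's test, without vehicle library 1 or without combination library 3. The rise of COL6A2 was lost with DESeq2's test and without vehicle library 1, vehicle library 2, combination library 2 or combination library 3 (adjusted p of 0.0656 to 0.200 over those left out). The median log2 change of the 24 collagen genes was -0.39, -0.65 and -1.17 with SR4, lonidamine and the combination, and that of the 8 laminin genes was 0.12, 0.12 and -0.37, beside -0.02, 9.45e-03 and -0.02 over all genes. All 44 collagen genes together summed to 1559 ± 27.0 CPM with SR4, 1390.3 ± 23.3 CPM with lonidamine and 858 ± 27.6 CPM with the combination, against 2069.6 ± 29.4 CPM with vehicle (SD, n = 3 each).

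COL1A1 (chromosome 17, 50183289 to 50201632, minus strand) had 12.3, 10.8 and 12.3 CPM with SR4, 32.5, 29.3 and 30.3 CPM with lonidamine, 14.6, 15.2 and 15.9 CPM with the combination, against 78.3, 82.6 and 76.7 CPM with vehicle. The SR4 libraries lay lowest, and no treated library came near the vehicle libraries. Its log2 change was -2.75 ± 0.077 with SR4, -1.39 ± 0.063 with lonidamine and -2.33 ± 0.071 with the combination, with adjusted p-values of 5.52e-22, 3.38e-17 and 1.18e-21. With the combination COL1A1 was higher than with SR4 alone, by 0.42 ± 0.098 log2. COL5A1 had 42.4, 35.4 and 38.8 CPM with SR4, 55.0, 53.0 and 48.2 CPM with lonidamine, 29.9, 30.7 and 33.5 CPM with the combination, against 112, 110.5 and 98.3 CPM with vehicle. It fell by 1.46 ± 0.068, 1.06 ± 0.064 and 1.72 ± 0.069 log2 with SR4, lonidamine and the combination. COL5A2 fell less, with 105, 101 and 97.8 CPM with SR4, 88.9, 93.6 and 82.5 CPM with lonidamine, 68.7, 74.6 and 69.8 CPM with the combination, against 119, 116 and 117 CPM with vehicle. The ratio of COL5A1 to COL5A2 per kilobase fell in PANC1, the opposite of its course in BXPC3: it was 0.244 ± 0.0183 with SR4, 0.377 ± 0.0172 with lonidamine and 0.283 ± 0.0220 with the combination, against 0.583 ± 0.0396 with vehicle. COL11A1 (chromosome 1, 102876467 to 103108496, minus strand) had 107, 111 and 102 CPM with SR4, 128, 124 and 126 CPM with lonidamine, 62.7, 67.3 and 62.8 CPM with the combination, against 218, 223 and 202 CPM with vehicle, and its log2 change was -1.01 ± 0.045 with SR4, -0.78 ± 0.043 with lonidamine and -1.69 ± 0.047 with the combination. COL3A1, the homotrimer of distensible tissues, fell by 1.01 ± 0.25, 0.86 ± 0.24 and 1.58 ± 0.26 with the same treatments, and COL27A1, a cartilage fibrillar collagen, by 0.43 ± 0.17, 1.25 ± 0.19 and 1.42 ± 0.19. COL11A2 did not pass with SR4 and fell with lonidamine and the combination, by 1.54 ± 0.43 and 1.45 ± 0.43. It had 0.629, 0.344 and 0.486 CPM with lonidamine and 0.329, 0.549 and 0.611 CPM with the combination, against 1.54, 1.85 and 0.858 CPM with vehicle. COL11A2 passed the low-count filter through 2 vehicle libraries and 2 SR4 libraries, so that the filter itself favoured these falls.

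COL18A1 (chromosome 21, 45405137 to 45513720, plus strand), the most abundant collagen of PANC1, had 1098, 1080.0 and 1068 CPM with SR4, 901, 911 and 879 CPM with lonidamine, 521, 549.5 and 525 CPM with the combination, against 1283, 1306 and 1291 CPM with vehicle. The 4 groups did not overlap, with the combination lowest, and the log2 change was -0.26 ± 0.031 with SR4, -0.55 ± 0.032 with lonidamine and -1.23 ± 0.032 with the combination. With the combination its mean was 532 CPM, against 1293 CPM with vehicle, beside the collagen sums given above. Among the fibril-associated collagens, COL16A1 fell by 1.18 ± 0.24, 1.40 ± 0.24 and 2.26 ± 0.27 log2 and COL9A3 by 0.79 ± 0.084, 0.95 ± 0.083 and 1.76 ± 0.092. COL16A1 had 0.823, 1.19 and 1.05 CPM with the combination, against 4.11, 5.98 and 5.15 CPM with vehicle, and COL9A3 had 10.7, 12.7 and 10.0 CPM, against 36.4, 39.2 and 41.0 CPM. COL26A1 had 6.38, 4.56 and 5.78 CPM with SR4, 4.67, 4.82 and 4.53 CPM with lonidamine, 2.31, 3.84 and 2.36 CPM with the combination, against 12.4, 12.1 and 10.5 CPM with vehicle, and COL8A2 had 1.11, 1.24 and 0.798 CPM with SR4, 1.35, 1.03 and 0.971 CPM with lonidamine, 0.988, 0.183 and 0.785 CPM with the combination, against 2.87, 2.94 and 2.25 CPM with vehicle. Both were below every vehicle library in every treated library. COL21A1, a fibril-associated collagen, fell with SR4 and the combination, by 0.39 ± 0.15 and 0.99 ± 0.16. COL13A1, a transmembrane collagen, fell with lonidamine and the combination, by 1.62 ± 0.39 and 2.74 ± 0.47. It had 0.718, 0.430 and 0.486 CPM with lonidamine and 0.165, 0.457 and 0.0873 CPM with the combination, against 1.44, 1.52 and 2.04 CPM with vehicle. COL13A1 passed the low-count filter through its 3 vehicle libraries and 2 SR4 libraries, so that the filter itself favoured these falls. COL7A1 fell by 0.37 ± 0.072, 0.64 ± 0.072 and 0.74 ± 0.074 log2 with SR4, lonidamine and the combination. COL9A2 passed with lonidamine, where it fell by 0.65 ± 0.28 (adjusted p = 0.0388).

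Chains of type VI and type IV collagen differed among themselves in PANC1. COL6A2 (chromosome 21, 46098097 to 46132849, plus strand) had 46.9, 53.4 and 45.1 CPM with SR4, 43.3, 47.8 and 44.0 CPM with lonidamine, 31.5, 36.0 and 33.1 CPM with the combination, against 29.7, 30.1 and 32.5 CPM with vehicle, and it rose by 0.65 ± 0.074 and 0.53 ± 0.074 log2 with the single compounds, with no overlap with vehicle. COL6A1, which is built into the same filaments, had 41.4, 44.1 and 34.5 CPM with SR4, 37.8, 36.1 and 38.2 CPM with lonidamine, 18.1, 21.7 and 16.8 CPM with the combination, against 45.6, 40.8 and 39.4 CPM with vehicle. It did not pass with SR4, was marginal with lonidamine (adjusted p = 0.0496, lost with DESeq2's size factors, with DESeq2's test, without the low-count filter and without vehicle library 1, vehicle library 2, lonidamine library 1, lonidamine library 2 or lonidamine library 3; adjusted p of 0.0536 to 0.266 over those left out), and fell by 1.11 ± 0.093 log2 with the combination. COL6A1 stood at 0.833 ± 0.0595 times COL6A2 per kilobase with SR4, 0.840 ± 0.0674 times with lonidamine and 0.567 ± 0.0485 times with the combination, against 1.38 ± 0.164 times with vehicle. COL6A3 passed with no treatment in the fit as reported, at 5.27, 3.57 and 5.50 CPM with the combination, against 6.26, 5.98 and 7.08 CPM with vehicle. With lonidamine it passed with the replicate block (adjusted p = 0.0498) and without lonidamine library 3 or combination library 2 (adjusted p = 0.0129 and 0.0441), and with the combination without lonidamine library 1 or combination library 3 (adjusted p = 0.0462 and 0.0412). COL4A1, COL4A2 and COL5A3 also passed with none in the fit as reported. With SR4, COL4A1 had 1.01, 0.933 and 1.30 CPM, and it passed as a rise without vehicle library 1 (log2 change 1.49, adjusted p = 0.0254). COL4A1 had 0.247, 0.732 and 0.785 CPM with the combination, against 1.44, 0.435 and 0.322 CPM with vehicle, and COL4A2 had 1.40, 1.19 and 1.31 CPM, against 0.924, 2.28 and 1.18 CPM, with log2 changes of COL4A1 that carried a wide error (SE 0.53 log2 with the combination). COL5A3 had 1.42, 1.55 and 1.70 CPM with SR4, 1.44, 1.03 and 2.19 CPM with lonidamine, 1.15, 1.37 and 1.13 CPM with the combination, against 2.26, 1.30 and 1.07 CPM with vehicle. COL4A5 passed with SR4, where it fell, with 0.203, 0.518 and 0.499 CPM with SR4, 0.718, 0.430 and 1.29 CPM with lonidamine, 0.659, 0.640 and 0.785 CPM with the combination, against 1.23, 1.30 and 1.29 CPM with vehicle. COL4A5 reached the low-count filter through its 3 vehicle libraries and 1 lonidamine library, so that the filter itself favoured a fall with SR4. COL12A1 passed with the combination alone, at 6.67, 5.22 and 7.504 CPM, against 5.13, 5.65 and 4.51 CPM with vehicle, a log2 change of 0.39 ± 0.18 that was lost with DESeq2's test, with the replicate block and without vehicle library 1, vehicle library 3, combination library 1 or combination library 3 (adjusted p of 0.0778 to 0.199 over those left out).

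Laminin genes of PANC1 responded to each compound in a way of their own. With SR4 the chains of laminin-511 moved little: LAMB1 rose by 0.14 ± 0.038 log2, and LAMA5 and LAMC1 did not pass (0.02 ± 0.052 and -0.08 ± 0.043). With lonidamine they split. LAMA5 had 247, 271 and 234 CPM with SR4, 144, 162 and 175 CPM with lonidamine, 129, 129 and 117 CPM with the combination, against 242, 249.9 and 248 CPM with vehicle, and LAMB1 had 296, 307 and 297 CPM with SR4, 176, 192 and 196 CPM with lonidamine, 208, 199.6 and 206 CPM with the combination, against 269.7, 272 and 275 CPM with vehicle. LAMC1 had 223, 217 and 226 CPM with SR4, 306, 336 and 343 CPM with lonidamine, 181, 171 and 171 CPM with the combination, against 245, 232 and 225 CPM with vehicle. LAMA5 and LAMB1 fell with lonidamine, by 0.64 ± 0.053 and 0.55 ± 0.039 log2, whereas LAMC1 rose by 0.47 ± 0.042. With the combination all 3 chains fell, LAMC1 by 0.38 ± 0.044. LAMA3 had 11.6, 11.4 and 12.9 CPM with SR4, 3.59, 3.96 and 4.05 CPM with lonidamine, 8.40, 7.87 and 7.85 CPM with the combination, against 9.96, 10.2 and 9.23 CPM with vehicle, and its lonidamine libraries lay lowest. LAMA3 fell with lonidamine, by 1.36 ± 0.14 log2. It rose with SR4 by 0.28 ± 0.12 in a call that was lost with DESeq2's test, without the low-count filter and without vehicle library 1, vehicle library 3 or SR4 library 3 (adjusted p of 0.0598 to 0.142 over those left out). LAMB2, a beta chain of neuromuscular and kidney basement membranes, had 58.9, 58.9 and 58.2 CPM with SR4, 62.3, 57.2 and 56.3 CPM with lonidamine, 52.1, 60.0 and 48.1 CPM with the combination, against 42.7, 49.9 and 45.7 CPM with vehicle, a rise of 0.35 ± 0.073 with SR4, 0.33 ± 0.071 with lonidamine and 0.26 ± 0.072 with the combination log2. LAMA4, an alpha chain of vessels, rose with lonidamine, by 0.73 ± 0.17, with 5.27, 8.29 and 6.28 CPM with SR4, 9.52, 9.12 and 11.2 CPM with lonidamine, 5.43, 3.93 and 6.02 CPM with the combination, against 6.06, 5.00 and 6.65 CPM with vehicle. LAMC3 fell with SR4 and the combination, by 0.47 ± 0.15 and 0.86 ± 0.16.

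**Figure D4:**
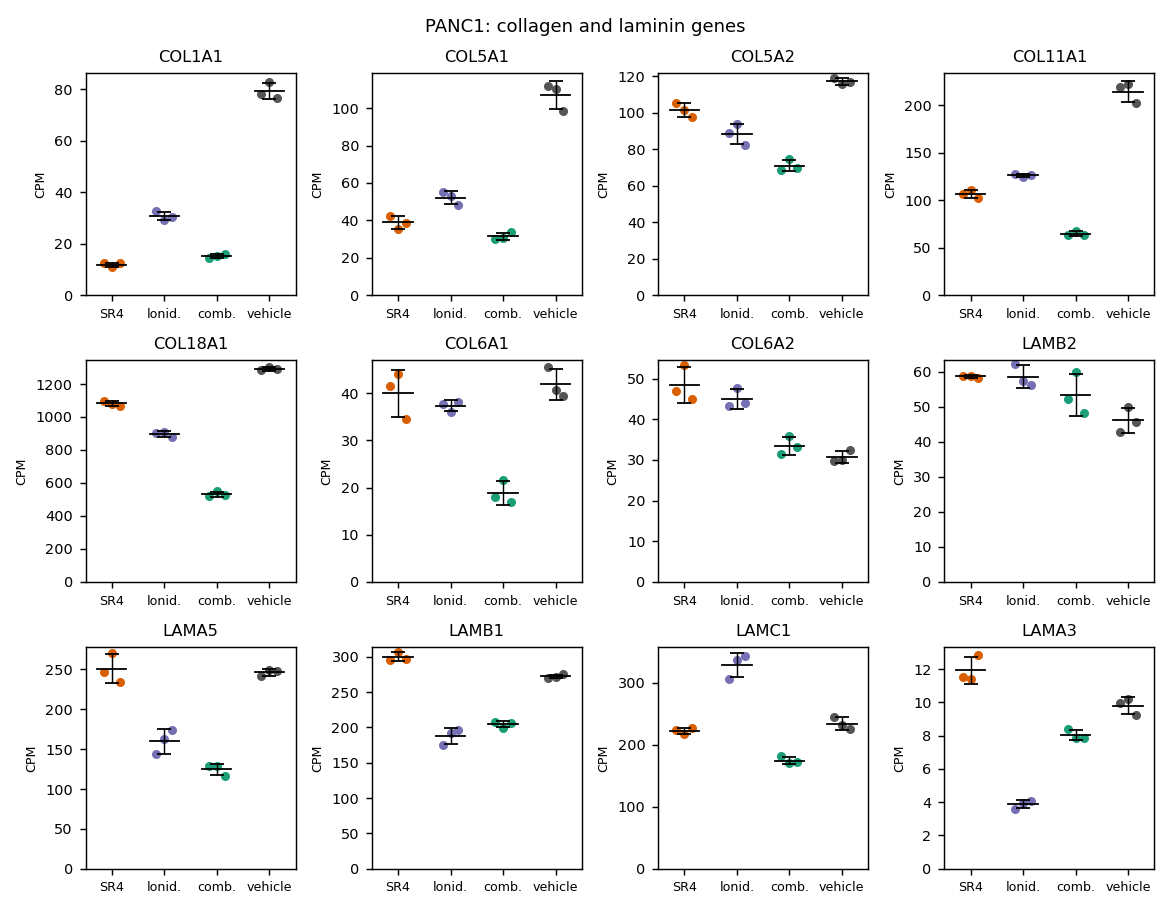
CPM of 12 collagen and laminin genes in each PANC1 library by treatment (SR4, lonidamine, the combination and vehicle, left to right); points are libraries, the line is the mean and the bar the SD of 3 libraries, and each axis starts at 0. COL1A1, COL5A1, COL11A1 and COL18A1 lie below vehicle in the 9 treated libraries, LAMC1 is high with lonidamine and LAMA3 is low with it.

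Set against each compound alone, the combination left more members lower than higher in both lines. In PANC1, 2 members were higher and 20 lower with the combination than with SR4, where 33.2% and 33.4% of all genes were, and 2 were higher and 17 lower than with lonidamine, where 37.1% and 37.5% were. In BXPC3, 7 were higher and 17 lower than with SR4, where 30.3% and 30.5% were, and 5 were higher and 18 lower than with lonidamine, where 30.1% and 30.7% were. The median member changed by -0.51 and -0.51 log2 in PANC1 and by -0.34 and -0.16 in BXPC3 against SR4 and lonidamine, beside all-gene medians no further from 0 than 0.02. In BXPC3, COL8A1 lay 3.02 ± 0.079 log2 below SR4 and 1.94 ± 0.089 below lonidamine. COL4A1 lay 3.26 ± 0.21 and 1.34 ± 0.27 below the same compounds, and COL12A1 1.51 ± 0.092 and 1.41 ± 0.092. LAMB3 went the other way and was higher with both compounds, by 0.98 ± 0.036 against SR4 and 1.22 ± 0.036 against lonidamine. LAMA3 was above SR4 and below lonidamine, with differences of 0.32 ± 0.038 and -0.10 ± 0.038. In PANC1, COL18A1 lay 0.98 ± 0.032 and 0.69 ± 0.032 below SR4 and lonidamine, and COL6A1 1.04 ± 0.093 and 0.92 ± 0.092 below. LAMA3 lay 0.52 ± 0.12 below SR4 and 1.12 ± 0.14 above lonidamine.

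**Figure D5:**
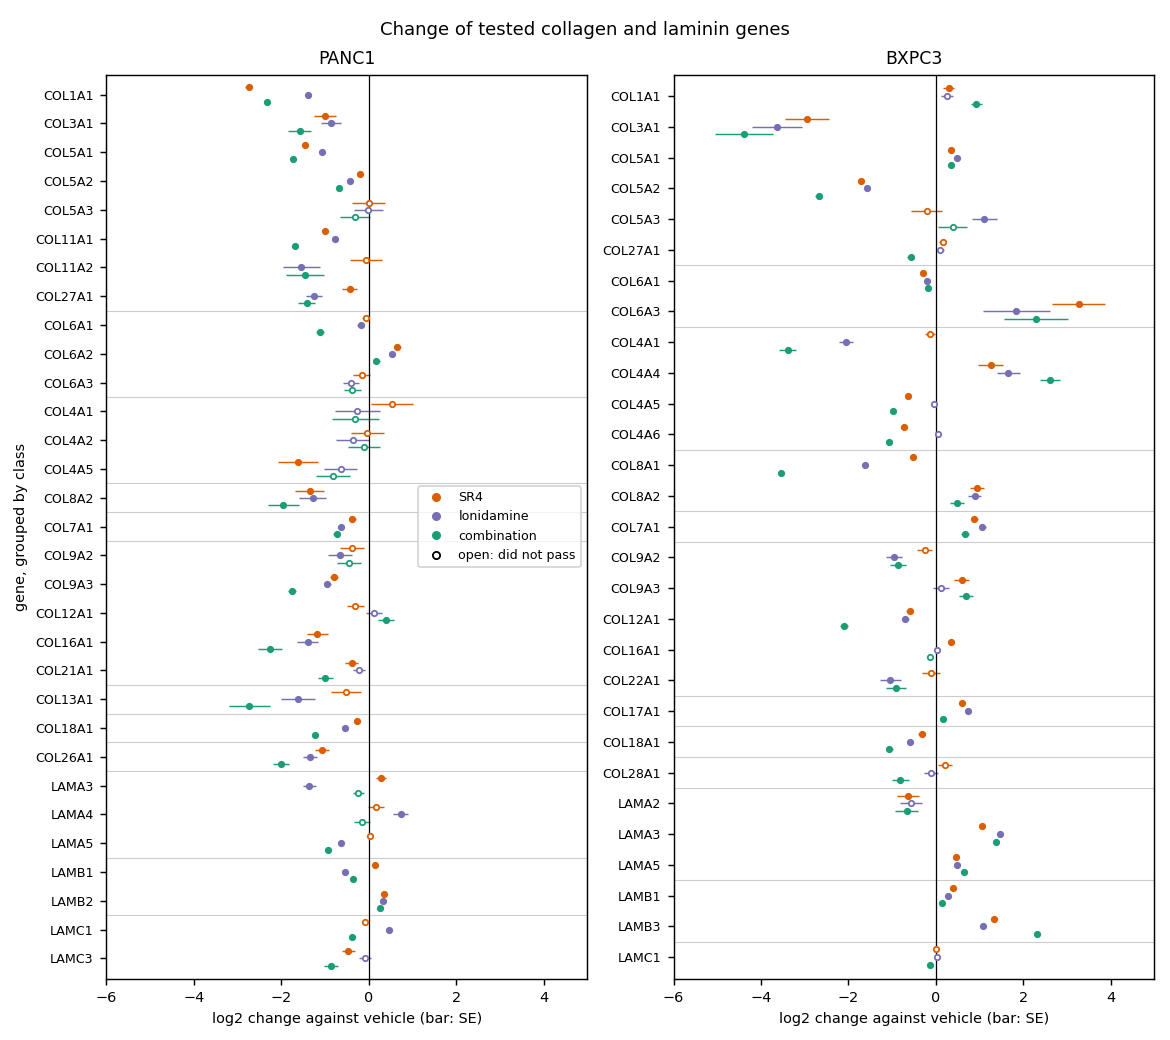
Log2 change against vehicle of the members described here, in PANC1 (left) and BXPC3 (right), grouped by class, for SR4, lonidamine and the combination; bars are SE, and open points did not pass an adjusted p of 0.05. Most PANC1 collagens lie left of 0, and the BXPC3 laminins LAMA3 and LAMB3 lie right of 0 with each treatment.

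The lines were then compared in their responses, as the log2 change against vehicle in PANC1 minus that in BXPC3. Over all 40 members the difference passed for 16 with SR4, 21 with lonidamine and 24 with the combination, where 51.2%, 41.8% and 61.9% of all genes passed. Most of these differences were negative: 13 were negative and 3 positive with SR4, where 24.9% and 26.2% of all genes were. With lonidamine 16 were negative and 5 positive, where 18.2% and 23.5% of genes were, and with the combination 18 were negative and 6 positive, where 30.2% and 31.7% were. The 40 members include 10 tested in PANC1 only and 8 in BXPC3 only. Negative differences include COL4A4 with each treatment, COL11A2 with lonidamine and the combination, and COL13A1 with lonidamine. The low-count filter favoured that direction for these genes. COL6A3, negative with each treatment, and COL3A1, positive with each, rested on few counts in BXPC3. Among the 22 members tested in each line alone, 15, 18 and 19 passed with SR4, lonidamine and the combination, where 59.5%, 48.4% and 71% of the 11538 genes tested in both lines did. The 3 genes that fell in PANC1 and rose in BXPC3 with each treatment were COL5A1, COL7A1 and COL8A2. COL5A1 differed by -1.82, -1.51 and -2.10 log2 with SR4, lonidamine and the combination, and COL7A1 by -1.26, -1.67 and -1.44. COL1A1 fell in PANC1 and rose in BXPC3 with SR4 and the combination, differing by -3.05 and -3.30. Of the laminins, LAMA5 and LAMB1 were opposite with lonidamine and with the combination. LAMA3 was opposite with lonidamine, at -2.80. COL12A1 ran the other way from these, with a rise in PANC1 and a fall in BXPC3 with the combination. In the same direction in each line, COL18A1 and COL5A2 fell with the 3 treatments. COL18A1 fell by 1.23 ± 0.032 log2 in PANC1 and 1.06 ± 0.083 in BXPC3 with the combination.

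Genes that act on collagens and laminins were counted in 6 lists, to be read beside the shares and medians of all genes given above. With the combination 40.1% of all genes rose and 40.9% fell in PANC1, and 39.7% rose and 39.5% fell in BXPC3. Of the laminin receptors, with the combination 10 of the 11 tested fell in PANC1 and the other did not pass, and 2 rose and 8 fell of 10 in BXPC3, with median log2 changes of -0.95 and -0.49. SDC1, a syndecan, changed by -2.48 ± 0.056 in PANC1. ITGA3, an integrin chain that binds laminin-332, changed by -0.95 ± 0.032 log2 in PANC1 and 0.78 ± 0.030 in BXPC3, and ITGA6, which pairs with ITGB4 in hemidesmosomes, by -1.72 ± 0.041 and -0.83 ± 0.040. ITGB4 had 834 ± 35.0 CPM with the combination, against 492 ± 24.1 CPM with vehicle in BXPC3. In BXPC3, ITGA3 and ITGB4 thus rose with the combination and ITGA6 fell. Genes of collagen folding and secretion did not share a direction: with the combination 7 rose and 13 fell of 24 in PANC1 and 12 rose and 8 fell of 21 in BXPC3. MIA3 and MIA2, which load large cargoes such as procollagen at exit sites of the endoplasmic reticulum, both rose with the combination, MIA3 by 2.27 ± 0.043 log2 in PANC1 and 1.72 ± 0.049 in BXPC3, and MIA2 by 1.91 ± 0.057 and 2.20 ± 0.043. PLOD2, a lysyl hydroxylase, changed by -1.86 ± 0.045 in PANC1, and P4HA2, a prolyl hydroxylase chain, by 1.67 ± 0.061 in BXPC3. Of the processing and cross-linking genes, 1 rose and 9 fell of 11 in PANC1 with the combination, at a median of -1.14, and 4 rose and 6 fell of 12 in BXPC3, at a median of -0.03. TGM2, a transglutaminase, changed by -2.44 ± 0.051 in PANC1 and -2.92 ± 0.030 in BXPC3, and LOXL4, a lysyl oxidase, by -3.27 ± 0.13 and -5.74 ± 0.087.

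Of the basement membrane partners, 2 rose and 6 fell of 8 with the combination in PANC1, where 40.1% and 40.9% of all genes did. In BXPC3, 2 rose and 6 fell of 10, where 39.7% and 39.5% of all genes did. The same shares apply to the other combination counts below. NID1, a nidogen that links laminin to type IV collagen, changed by -0.83 ± 0.052 log2 in PANC1 and -0.91 ± 0.061 in BXPC3, and AGRN, the laminin-binding proteoglycan agrin, by -0.94 ± 0.043 in PANC1. NID2, the other nidogen, changed by -1.42 ± 0.053 and FBLN1, a fibulin, by -0.97 ± 0.062 in BXPC3. Of the collagen receptors, 2 rose and 4 fell of 8 in PANC1 and 4 rose and 3 fell of 7 in BXPC3. DDR1, a receptor kinase for collagen, changed by -1.68 ± 0.054 in PANC1, and ITGA2, an integrin chain that binds collagen and laminin, by 0.71 ± 0.046 in BXPC3. OSCAR, a collagen receptor of osteoclasts, had 55.7 ± 5.01 CPM with the combination, against 0.245 ± 0.134 CPM with vehicle in BXPC3. Of the matrix-degrading enzymes and inhibitors, 3 rose and 11 fell of 16 in PANC1 and 10 rose and 8 fell of 19 in BXPC3. MMP1, the interstitial collagenase, had 2125 ± 40.7 CPM with the combination, against 249 ± 11.3 CPM with vehicle in BXPC3, and PLAU, the urokinase gene, had 42.0 ± 2.26 CPM, against 245 ± 7.09 CPM in PANC1. With the single compounds the 6 lists gave median log2 changes between -0.66 and 0.44 in PANC1 and between -0.24 and 0.32 in BXPC3.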

How the data were processed

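The submitters deposited 1 table of raw gene counts per cell line, with 25168 genes, gene lengths and coordinates, and 12 libraries each. Per the labels' protocols, the kits were RNeasy for RNA and KAPA mRNA Hyper Prep for libraries. The submitters' processing notes name GRCh38 and hg38 as builds and STAR 2.7.8a, Partek and DESeq2 as tools, with no role for each. How reads were assigned to genes, with which annotation and by strand or not, was not given in the sources used here. The third BXPC3 SR4 column has a number that matches no title and was kept as an unnumbered replicate.

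From the deposited counts, edgeR 4.0.16 in R 4.3.3 was fitted with TMM scaling and filterByExpr (minimum count 10), which kept 12514 genes in PANC1, 12920 in BXPC3 and 13930 in a fit of all 24 libraries in 8 groups, used for comparisons between lines. Each line's fit had 4 groups and 8 residual degrees of freedom. Quasi-likelihood tests were adjusted by Benjamini-Hochberg over all genes tested, at 0.05, and each SE was taken as |log2 change| / sqrt(F). An exact permutation test of 3 against 3 libraries cannot go below a two-sided p of 0.1, so single genes were tested only in these fits. The biological coefficient of variation was 3.79% in PANC1 and 3.95% in BXPC3, and no replicates agreed within sampling noise (chi-square per degree of freedom 1.35 to 3.77 and 1.31 to 3.40). Counting intervals are exact 95% intervals and cover counting error only. Members named with values were the 8 highest per kilobase, the 5 largest rises and falls per treatment at a mean of at least 1 CPM, and the chains of 7 assemblies; others are given by counts or by their calls. List genes named were taken from the 3 with the smallest adjusted p per list. Named after their values were seen were COL3A1 and COL27A1, COL7A1, COL9A2, COL11A2, COL13A1, COL21A1 and LAMC3 in PANC1, and COL9A3, COL16A1, COL18A1 and COL28A1 in BXPC3. Results for 1 member are not reported here, although it is included in counts and medians of members. The members and lists were chosen with earlier results of these data known. The pipeline was tested on simulated data. Alternatives were DESeq2 1.42.0 (size factors and its test), no low-count filter, a replicate block, only the groups compared, and leaving out each library.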

Additional observations from a re-analysis of the deposited data

Results flagged for a closer look

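The response to treatment differed between PANC1 and BXPC3 by a test of the difference itself (edgeR, all 24 libraries) for 15 of the 22 members tested in both lines with SR4, 18 with lonidamine and 19 with the combination. Of all genes tested in both lines, 59.5%, 48.4% and 71% passed. Members that passed in both lines in opposite directions are given below as the log2 change in PANC1 minus that in BXPC3. With SR4 these differed as follows: COL16A1 by -1.53, COL1A1 by -3.05, COL5A1 by -1.82, COL7A1 by -1.26, COL8A2 by -2.29 and COL9A3 by -1.39. With lonidamine they differed as follows: COL5A1 by -1.51, COL7A1 by -1.67, COL8A2 by -2.14, LAMA3 by -2.80, LAMA5 by -1.09 and LAMB1 by -0.79. With the combination they differed as follows: COL12A1 by 2.46, COL1A1 by -3.30, COL5A1 by -2.10, COL7A1 by -1.44, COL8A2 by -2.48, COL9A3 by -2.48, LAMA5 by -1.63 and LAMB1 by -0.54. Among these, the difference of responses was positive for COL12A1 and negative for the others. The COL1A1 difference with SR4 includes a BXPC3 rise that several alternatives lost, and the COL12A1 and COL8A2 differences with the combination include calls that DESeq2's test or 1 library decided. Each line is 1 cell line, so line and any batch of culture or sequencing cannot be told apart.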

How the results depend on the processing

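Single changes were compared for the members named by rule, against vehicle and between the vehicle groups of the lines. Among these, no change that passed as reported or in an alternative run reversed its direction. The combination against single compounds and the differences of responses were followed as counts of members only. The number of members that rose with the combination in PANC1, 3 as reported, was 1 with DESeq2's test, and between 1 and 3 when each library was left out in turn. All other counts of members stayed within 1.5 times the reported ones. DESeq2's size factors moved the all-gene median by at most 0.0494 log2. Same-numbered libraries did not deviate together (correlations of -0.135 to 0.0856 in PANC1 and -0.0754 to 0.0775 in BXPC3). These correlations cannot tell whether a shared number marks a shared culture or preparation. With a replicate block, members rising and falling with the combination numbered 2 and 21 in PANC1 and 13 and 16 in BXPC3. Of 177 changes of single members, 7 calls were lost with DESeq2's test, 2 with its size factors, 3 with the block and 2 without the filter, and 1 was gained with the size factors, 1 with the block and 2 with only the groups compared. Over 2520 changes of single members with 1 library left out, 34 calls were lost and 15 gained. Genes of few counts, such as COL4A1 and COL4A2 in PANC1 or COL6A3 in BXPC3, are limited by depth.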
